A study of Mus musculus with 14 samples.

Results

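The transcripts of 10 genes, the 6 subunits of AMP-activated protein kinase (AMPK) that form its common complexes and 4 regulators of mitochondrial biogenesis, were examined by RNA sequencing of mouse brain. The members were chosen by name, Prkaa1, Prkaa2, Prkab1, Prkab2, Prkag1, Prkag2, Ppargc1a, Tfam, Nrf1 and Sirt3, among the 43346 genes of the deposited table, and each name matched 1 gene. CP2 is a compound that weakly inhibits complex I of the respiratory chain, and the study asked whether chronic CP2, begun after the onset of symptoms, is of benefit to APP/PS1 mice. The groups were 4 non-transgenic (NTG) mice, 5 APP/PS1 mice (genotype labelled APP/PS1 +/+) and 5 APP/PS1 mice given CP2 at 25 mg/kg/day in drinking water with 0.1% PEG from 9 months of age. All mice were females of the strain C57BL/6;SJL-Tg aged 23 months, and brain tissue spanning hippocampus and cortex was taken. The NTG and APP/PS1 groups are labelled non-treated, and the treatment protocol gives them vehicle water with 0.1% PEG. APP/PS1 mice carry APP and PS1 transgenes with mutations of familial Alzheimer's disease, and the promoters of the transgenes are not given in the sources used here. Below, APP/PS1 denotes the vehicle group and CP2-treated denotes the APP/PS1 mice given CP2. No values of NTG mice given CP2 were used here, so an effect of CP2 in wild-type brain cannot be read from these data. Mice are named by their library numbers, 7 to 10 in NTG, 16 to 20 in APP/PS1 and 21 to 25 in CP2-treated mice.

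AMPK is a heterotrimeric sensor of cellular energy. A catalytic alpha subunit is held by a scaffolding beta subunit to a gamma subunit that binds AMP, ADP and ATP, and a rise in AMP favours phosphorylation of the alpha subunit by upstream kinases. Active AMPK restrains biosynthesis and promotes mitochondrial renewal, in part through the coactivator PGC-1alpha, which works with nuclear respiratory factors and estrogen-related receptors to raise nuclear genes for mitochondria. TFAM then packages and transcribes mitochondrial DNA, and the deacetylase Sirt3 acts on enzymes inside the organelle. AMPK activity is set mainly by phosphorylation and nucleotides, which RNA sequencing does not measure.

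Sirt3 was the member that differed between genotypes. Its transcript was 14.6% lower in APP/PS1 than in NTG mice and 14.4% lower in CP2-treated than in NTG mice, whereas the difference between the APP/PS1 groups was -0.134% with a 95% interval from -6.94% to 7.16%. No AMPK subunit passed the edgeR adjusted threshold in any of the 3 comparisons, and neither did Ppargc1a, Tfam or Nrf1, although Prkaa1 passed with 2 other methods in CP2-treated against NTG mice. These comparisons share mice, so that they are not independent of each other.

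Total counts ranged from 70548781 to 106235625 per mouse, and the members were counted between 858 and 7798 times in each mouse, which gives a counting error of at most 3.41%. APP/PS1 mouse 16 stood apart. Its 8 striatal markers summed to 2520 CPM, the counts of a gene scaled to a fixed library size, against 193 to 375 CPM in the other mice, and its thalamic (183 CPM) and dentate gyrus markers (32.3 CPM) were the lowest. The 7 microglial markers summed to 343 to 360 CPM in NTG, 655 to 911 CPM in APP/PS1 and 533 to 817 CPM in CP2-treated mice, and the 6 plaque-associated microglial markers to 87.7 to 98.7, 213 to 335 and 191 to 284 CPM. In bulk tissue fewer cells of a type and less RNA per cell cannot be told apart. Counts on 2 genes of ribosomal origin made up 2.40% to 7.50% of each library, and none of the 37 genes of the mitochondrial chromosome had a count, so that transcripts made under TFAM from mitochondrial DNA were not measured.

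The start regions of Sirt3, Tfam and Ppargc1a are shown because Sirt3 carries the genotype difference described here, and because Tfam and Ppargc1a are the members whose transcription is classically tied to Ets-family factors and to cAMP signalling. All are RefSeq windows of GRCm38.p6 from 250 bases before to 50 after the annotated start, printed 5′ to 3′ on the strand of the gene, and all 10 members matched at least 1 window. The windows lie at chr7:140882260-140882559 (minus strand) for Sirt3, chr10:71237995-71238294 (minus strand) for Tfam and chr5:51567676-51567975 (minus strand) for Ppargc1a. Capitals mark CCGGAAG, the core bound by Ets factors such as GABP, and TGACG, the core of the cAMP response element, on either strand.
Sirt3: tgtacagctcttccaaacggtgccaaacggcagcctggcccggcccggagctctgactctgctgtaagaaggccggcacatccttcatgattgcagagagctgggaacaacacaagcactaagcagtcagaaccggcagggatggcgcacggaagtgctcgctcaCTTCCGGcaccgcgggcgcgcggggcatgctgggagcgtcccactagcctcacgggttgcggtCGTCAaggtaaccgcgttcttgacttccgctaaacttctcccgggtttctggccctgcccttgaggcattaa
Tfam: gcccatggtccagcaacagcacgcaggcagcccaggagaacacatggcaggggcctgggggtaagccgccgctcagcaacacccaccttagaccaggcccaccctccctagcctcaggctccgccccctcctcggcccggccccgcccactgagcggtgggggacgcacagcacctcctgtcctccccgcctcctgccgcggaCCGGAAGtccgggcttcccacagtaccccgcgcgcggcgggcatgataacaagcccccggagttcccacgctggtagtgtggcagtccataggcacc
Ppargc1a: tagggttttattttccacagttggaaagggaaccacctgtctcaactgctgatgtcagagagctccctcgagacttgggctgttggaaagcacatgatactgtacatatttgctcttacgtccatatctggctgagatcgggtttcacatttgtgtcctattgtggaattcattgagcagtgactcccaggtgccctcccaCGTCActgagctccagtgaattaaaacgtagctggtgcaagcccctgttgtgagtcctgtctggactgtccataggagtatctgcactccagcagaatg

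CCGGAAG was found in the windows of 4 of the 10 members (Prkab1, Prkag1, Tfam and Sirt3) and in 8.86% of all 32851 windows, and TGACG in those of 4 members (Prkaa2, Prkag1, Ppargc1a and Sirt3) and in 20.8% of all. Members were counted by gene and the shares by window, so that these are not like for like. Prkag2 had 3 windows, and Nrf1 and Sirt3 had 2 each. In the printed Sirt3 window both matches read on the strand opposite to the gene, 85 and 22 bases before its start, and they do not overlap. The other Sirt3 window, at chr7:140881820-140882119, held neither motif. The palindromic core of nuclear respiratory factor 1 (4.6% of all windows) and the estrogen-related receptor motif TCAAGGTCA (0.423% of all windows) were not among the letters of any member's window. A match describes the sequence and does not show that a factor binds. Sirt3 shares its start region with Psmd13, a proteasome lid subunit transcribed in the other direction, and 184 bases of their windows are the same stretch of DNA.

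Sirt3 (chr7:140863670-140882309, mm10) encodes the main mitochondrial protein deacetylase. NTG mice 7 to 10 had 55.9, 59.7, 61.7 and 57.0 CPM of Sirt3. APP/PS1 mice 16 to 20 had 50.3, 50.1, 51.4, 50.2 and 46.8 CPM, and CP2-treated mice 21 to 25 had 50.9, 49.9, 53.0, 50.1 and 44.7 CPM. The highest APP/PS1 mouse of either group was below the lowest NTG mouse, and the APP/PS1 groups overlapped almost fully. Group means were 58.6 ± 2.62 CPM in NTG (SD, n = 4), 49.8 ± 1.77 CPM in APP/PS1 (SD, n = 5) and 49.7 ± 3.05 CPM in CP2-treated mice (SD, n = 5).

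**Figure D1:**
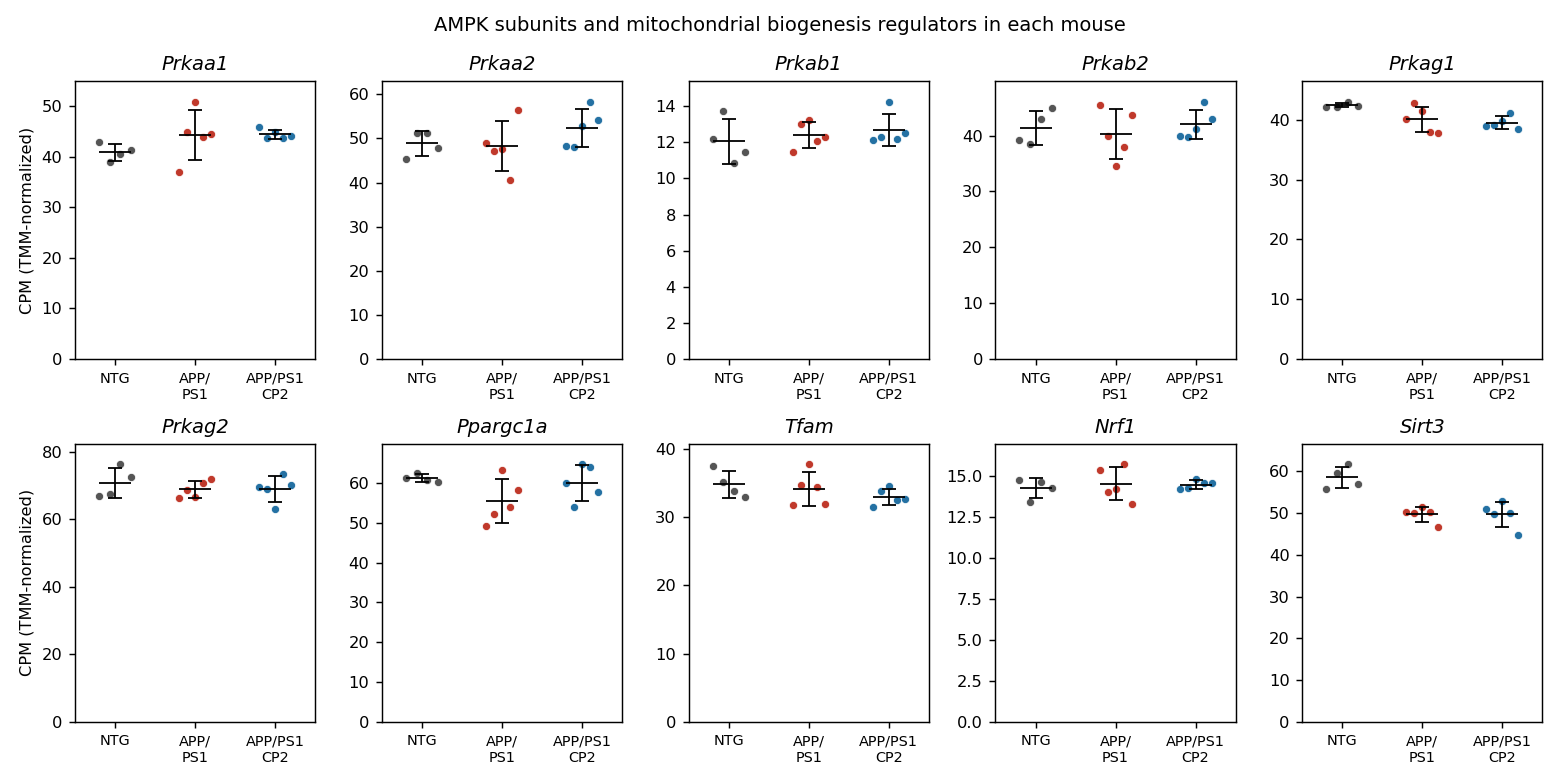
Transcript level of each of the 10 members, in TMM-normalized CPM (vertical axis, from 0), with 1 point per mouse and the mean with its SD as black bars, for NTG (grey), APP/PS1 (red) and CP2-treated mice (blue). Sirt3 lies between 44.7 and 53.0 CPM in all APP/PS1 mice and between 55.9 and 61.7 CPM in NTG mice, and the groups overlap in the other panels except for Prkaa1 and Prkag1 between NTG and CP2-treated mice.

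Against NTG mice, Sirt3 fell by 0.23 on the log2 scale in APP/PS1 mice (SE 0.05, adjusted p = 0.0158, edgeR quasi-likelihood test with Benjamini-Hochberg adjustment over 16417 genes). It was the 1 member of 10 called there, where 5.68% of all genes tested were called, 4.34% higher and 1.34% lower. It was also the 1 member with separate groups, where 5.93% of all genes had separate groups with higher and 4.11% with lower values, and the 1 member with an unadjusted p under 0.05, which 18.7% of all genes had. Sirt3 fell by 0.23 (SE 0.05, edgeR adjusted p = 0.0263) in CP2-treated mice, where it was again the 1 member of 10 called and 6.02% of all genes were called, 4.56% higher and 1.46% lower. Without mouse 16 the first difference was -0.23 with an adjusted p of 0.0182. Both calls depended on single mice. Without NTG mouse 8 the edgeR adjusted p was 0.0637 against APP/PS1 and 0.0791 against CP2-treated mice, without NTG mouse 9 it was 0.0612 and 0.0860, and against CP2-treated mice it was 0.0559 without mouse 22 and 0.0581 without mouse 24. With the ribosomal RNA share as a covariate it was 0.0906 in APP/PS1 and 0.0385 in CP2-treated mice. The log2 difference stayed between -0.25 and -0.19 over all 17 alternatives of each comparison, and adjusted p ranged from 9.57e-05 to 0.0906 and from 0.00118 to 0.0860.

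The microglial markers rose in the same comparisons, 7 of 7 with adjusted p under 0.05 in APP/PS1 and 5 of 7 in CP2-treated mice, and their part in the Sirt3 difference was not tested. The 9 neuronal markers summed to 6614 to 8172 CPM in NTG, 6329 to 8236 CPM in APP/PS1 and 6819 to 7637 CPM in CP2-treated mice, and 0 of 9 passed the adjusted test in either comparison with NTG (0 and 2 at an unadjusted p under 0.05). Like Sirt3, all 6 dentate gyrus markers were lower than in NTG mice in both APP/PS1 groups. Between the APP/PS1 groups, where the Sirt3 estimate was -0.002, all 6 of these markers were higher in CP2-treated mice. Their median log2 difference there was 0.34, with 1 of 6 at an unadjusted edgeR p under 0.05. They summed to 105 to 146 CPM in NTG, to 32.3 CPM in mouse 16 and 76.0 to 99.3 CPM in the other APP/PS1 mice, and to at most 106 CPM in CP2-treated mice, of which mouse 21 alone reached the NTG range, with 1 of 6 called lower by edgeR in APP/PS1 and 2 of 6 in CP2-treated against NTG mice. The 6 astrocyte markers summed to 4280 to 4864, 4681 to 6237 and 4743 to 5832 CPM in the 3 groups, with 1 called higher and 1 lower in APP/PS1 and 2 higher and 1 lower in CP2-treated against NTG mice. The 5 endothelial markers summed to 148 to 153, 140 to 214 and 165 to 184 CPM in the 3 groups. By edgeR 1 of them was called higher in APP/PS1 and 4 in CP2-treated against NTG mice. The part of these lists in the Sirt3 difference was not tested.

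Reads that overlap more than 1 gene were counted on each by the authors, and the library kit does not mark strand. Sirt3 overlaps Psmd13 by 342 bases at its start and Ric8 by 61 bases at its end in the deposited spans. Ric8 encodes a guanine nucleotide exchange factor for G protein alpha subunits. In GENCODE M21 Sirt3 shares 342 exonic bases with Psmd13 and 418 with Ric8. There 8.59% of the 101-base stretches of Sirt3 transcripts occur in these 2 genes. The deposited length of Sirt3 is 1570 bases against 5973 exonic bases in GENCODE M21, so that this share can differ for the model counted. Reads only partly in the shared bases also counted for both genes, and the share of such reads was not measured. Psmd13 had log2 differences of -0.07 (SE 0.04, edgeR adjusted p = 0.453) in APP/PS1 and -0.12 (SE 0.06, adjusted p = 0.263) in CP2-treated mice against NTG, and Ric8 had -0.02 and -0.03. Neither neighbour was called where Sirt3 was.

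**Figure D2:**
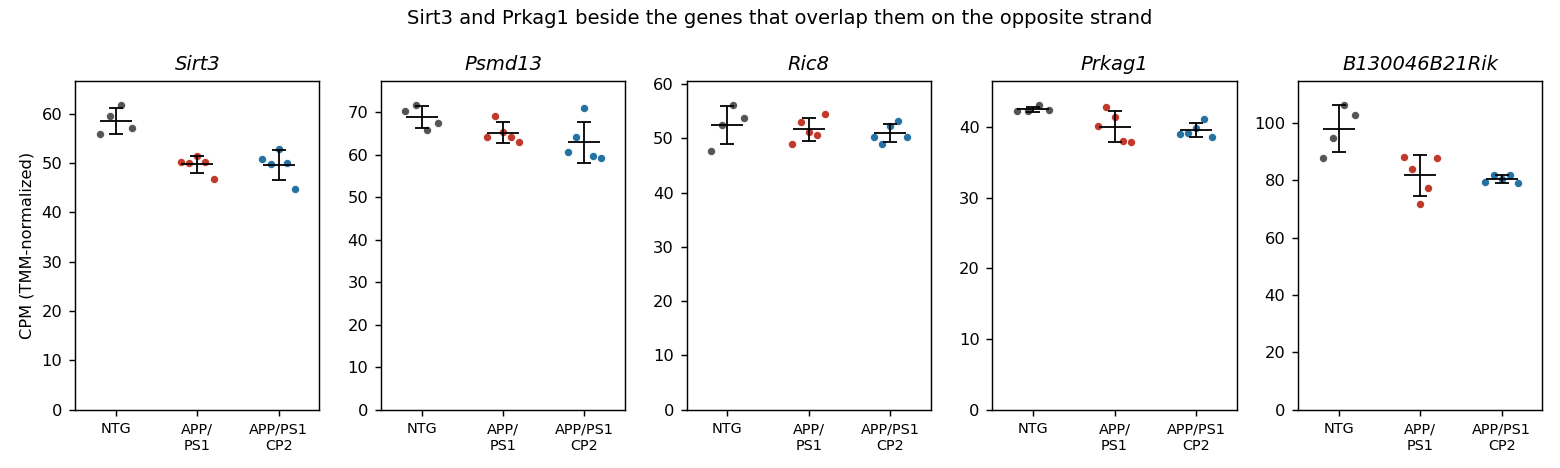
Sirt3 and Prkag1 with the genes that overlap them on the opposite strand, in CPM (vertical axis, from 0) with 1 point per mouse and the mean with its SD, for NTG, APP/PS1 and CP2-treated mice. Psmd13 and Ric8 overlap between all groups, while B130046B21Rik has means of 97.8, 81.7 and 80.5 CPM.

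Among the catalytic subunits, Prkaa1 (chr15:5143861-5181899) encodes AMPK alpha1 and Prkaa2 (chr4:105029874-105109890) encodes AMPK alpha2. Prkaa1 was measured at 42.9, 38.9, 40.5 and 41.3 CPM in NTG mice 7 to 10. It was at 36.9, 44.8, 50.9, 43.9 and 44.4 CPM in APP/PS1 mice 16 to 20, and at 45.8, 43.7, 44.8, 43.7 and 44.2 CPM in CP2-treated mice 21 to 25. APP/PS1 mouse 16 was the lowest of all mice and mouse 18 the highest, and every CP2-treated mouse was above every NTG mouse.

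The Prkaa1 difference between CP2-treated and NTG mice was 0.13 on the log2 scale (SE 0.04, 95% interval 0.04 to 0.22), or 9.58%. Its edgeR p was 0.00847 before and 0.0954 after adjustment, and the adjusted p was 0.0451 with DESeq2 and 0.0448 with limma-voom, so that the call depends on the method (range over 17 alternatives 0.0448 to 0.346). Groups were separate in this comparison for 3 of 10 members (Prkaa1 higher, Prkag1 and Sirt3 lower), while 9.61% of all genes tested had separate groups, 6.00% higher and 3.61% lower. The same 3 members had an unadjusted p under 0.05, against 20.2% of all genes. In APP/PS1 against NTG mice Prkaa1 had a difference of 0.12 (SE 0.08, edgeR adjusted p = 0.490), and 0.18 with an adjusted p of 0.0909 without mouse 16 (range over alternatives 0.0909 to 0.710). The difference between the APP/PS1 groups was 0.01 (95% interval -0.14 to 0.16), and it changed sign to -0.05 without mouse 16.

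Prkaa2 was at 45.2, 51.2, 51.3 and 47.7 CPM in NTG, at 49.1, 47.3, 47.7, 40.6 and 56.5 CPM in APP/PS1 and at 48.3, 48.1, 52.7, 58.3 and 54.1 CPM in CP2-treated mice. The groups overlapped throughout, with the lowest and the second highest value in APP/PS1 mice 19 and 20. It had the largest estimate of the 10 members between the APP/PS1 groups, 0.12 (SE 0.08, 95% interval -0.06 to 0.30, edgeR adjusted p = 0.786), and the interval runs from -4.36% to 23.1%. Against NTG mice the differences were -0.01 in APP/PS1 and 0.11 in CP2-treated mice, with edgeR adjusted p of 0.961 and 0.373.

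Of the scaffolds, Prkab1 (beta1, chr5:116013586-116024508) was the least counted of the 6 subunits, with 10.8 to 13.7 CPM in NTG, 11.5 to 13.2 CPM in APP/PS1 and 12.1 to 14.3 CPM in CP2-treated mice. Prkab2 (beta2, chr3:97658193-97673812) ranged from 38.5 to 44.9 CPM, from 34.5 to 45.5 CPM and from 39.8 to 46.1 CPM in the same groups. All 3 groups overlapped for both genes, and the log2 differences lay between -0.03 and 0.08 over the 3 comparisons. The 95% intervals of these differences reached from -0.22 to 0.26.

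The gamma subunits carry the nucleotide-binding sites. Prkag1 (gamma1, chr15:98812798-98831508) was tightly grouped in NTG mice at 42.2, 42.2, 43.0 and 42.4 CPM. It was at 40.1, 42.8, 41.4, 38.0 and 37.9 CPM in APP/PS1 and at 39.0, 39.2, 39.8, 41.1 and 38.5 CPM in CP2-treated mice. All CP2-treated mice were below all NTG mice, and APP/PS1 mice spanned both ranges. The difference between CP2-treated and NTG mice was -0.09 (SE 0.04, 95% interval -0.17 to -0.01), with an edgeR p of 0.0281 before and 0.182 after adjustment, so that it was not called. The antisense gene B130046B21Rik overlaps Prkag1 on the opposite strand by 950 exonic bases in GENCODE M21, and 12.4% of the 101-base stretches of Prkag1 transcripts occur in it. It had 6168 to 9597 counts per mouse against 2837 to 4489 for Prkag1, and it fell by 0.27 on the log2 scale in CP2-treated against NTG mice (SE 0.05, edgeR adjusted p = 0.0115). In APP/PS1 against NTG mice its log2 difference was -0.25 (SE 0.08, edgeR adjusted p = 0.0897, range over alternatives 0.0238 to 0.266). Reads of the 2 genes cannot be told apart in the shared bases. Reads only partly in these bases also counted for both genes, and the share of such reads was not measured.

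Prkag2 (gamma2, chr5:24862744-25100642) ranged from 66.9 to 76.4 CPM in NTG, from 66.5 to 71.9 CPM in APP/PS1 and from 63.0 to 73.5 CPM in CP2-treated mice, with full overlap. Its log2 differences were -0.03, 0.00 and -0.02 in the 3 comparisons, with 95% intervals inside -0.15 to 0.11. The antisense gene Prkag2os2 shares 9.19% of the 101-base stretches of Prkag2 and had 456 to 813 counts. Prkag3, the gamma subunit known mainly from glycolytic muscle, had 4 to 46 counts per mouse (0.0460 to 0.557 CPM) and was not tested.

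**Figure D3:**
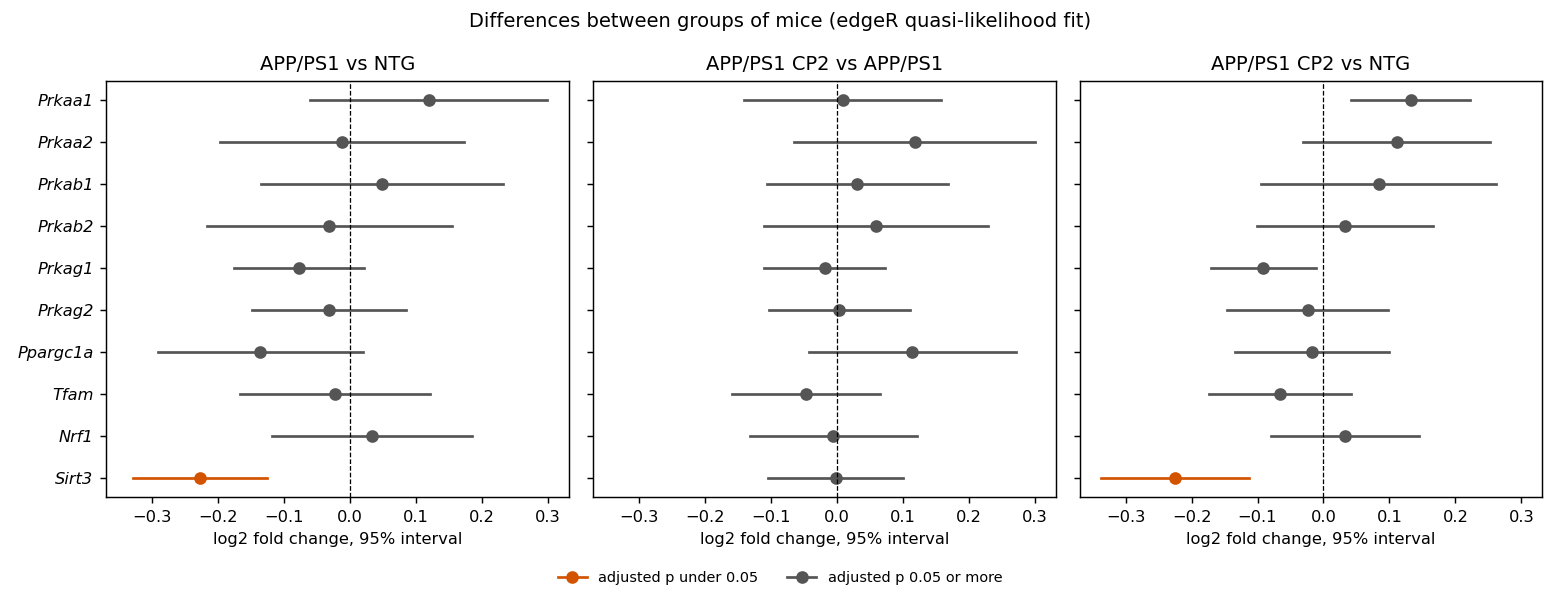
Log2 fold change (points, horizontal axis) and 95% interval (lines) of each of the 10 members from the edgeR quasi-likelihood fits of APP/PS1 against NTG, CP2-treated against APP/PS1, and CP2-treated against NTG mice. Orange marks an adjusted p under 0.05, which Sirt3 has in both comparisons with NTG at -0.23 and no member has between the APP/PS1 groups.

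Between the APP/PS1 groups, 0 of 10 members had an edgeR adjusted p under 0.05 and 0 of 10 an unadjusted p under 0.05. DESeq2 and limma-voom also called 0 of 10. Among all genes tested, 0.00609% were called after adjustment, which is 1 of 16407, 6.55% had an unadjusted p under 0.05, and 1.14% had separate groups (0.549% higher and 0.591% lower) against 0 of 10 members. The members' log2 differences lay between -0.05 and 0.12, with a median of 0.01 against -0.01 over all genes. Intervals ran from -10.5% at the lowest to 23.1% at the highest, so that changes of this size were not excluded by these mice, and a p that misses the threshold does not show that the groups are alike.

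Ppargc1a (chr5:51454249-51567725) encodes PGC-1alpha, which in the brain is most abundant in inhibitory interneurons. It was at 61.4, 62.6, 60.9 and 60.2 CPM in NTG mice. In APP/PS1 mice 16 to 20 it was at 49.2, 52.3, 63.3, 54.1 and 58.4 CPM, and in CP2-treated mice 21 to 25 at 59.9, 53.9, 64.7, 64.0 and 57.7 CPM. Of the APP/PS1 mice 4 of 5 were below all NTG mice and mouse 18 was above them, and CP2-treated mice lay on both sides. The log2 differences were -0.14 in APP/PS1 against NTG (SE 0.07, 95% interval -0.29 to 0.02, edgeR adjusted p = 0.340), 0.11 in CP2-treated against APP/PS1 (SE 0.07, 95% interval -0.04 to 0.27, adjusted p = 0.762) and -0.02 in CP2-treated against NTG mice (SE 0.05, adjusted p = 0.896).

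The lowest Ppargc1a value was that of mouse 16, and without it the first difference was -0.09 and the other 0.08. With the ribosomal RNA share as a covariate they were -0.03 and 0.02. The 6 genes known to depend on PGC-1alpha in interneurons (Pvalb, Syt2, Nefh, Cplx1, Kcnc1 and Kcnc2) summed to 1372 to 1586 CPM in NTG, 1057 to 1495 CPM in APP/PS1 and 1232 to 1393 CPM in CP2-treated mice, with mouse 16 again the lowest. By edgeR 0 of the 6 passed the adjusted test in any comparison, and 3, 2 and 1 had an unadjusted p under 0.05 in APP/PS1 against NTG, CP2-treated against APP/PS1, and CP2-treated against NTG mice, where 18.7%, 6.55% and 20.2% of all genes had one. In APP/PS1 against NTG mice all 6 interneuron genes were below 0 (median log2 difference -0.21). Between the APP/PS1 groups 5 of 6 were above 0 (median 0.12). The 8 thalamic markers were all below 0 in the first comparison (median -0.48) and all above 0 in the other (median 0.58). By edgeR 0 of these 8 passed the adjusted test in either. Their sums were 454 to 691 CPM in NTG and 452 to 671 CPM in CP2-treated mice. APP/PS1 mice other than mouse 16 had 384 to 511 CPM. The part of both lists in the Ppargc1a values was not tested.

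Tfam (chr10:71225464-71238280), the mitochondrial transcription factor A gene, was at 37.5, 35.2, 33.8 and 32.9 CPM in NTG mice. It was at 31.8, 34.7, 37.8, 34.4 and 31.9 CPM in APP/PS1 and at 31.5, 33.8, 34.5, 32.6 and 32.7 CPM in CP2-treated mice. The groups overlapped, and the log2 differences were -0.02 (95% interval -0.17 to 0.12), -0.05 (-0.16 to 0.07) and -0.07 (-0.17 to 0.04) in the 3 comparisons. Nrf1 (chr6:30047988-30153458) encodes nuclear respiratory factor 1, not the Nfe2-like factor of the same short name. It ranged from 13.4 to 14.7 CPM in NTG, from 13.3 to 15.7 CPM in APP/PS1 and from 14.2 to 14.8 CPM in CP2-treated mice, with log2 differences of 0.03, -0.01 and 0.03.

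Levels were compared between genes per length of transcript, with the depth- and length-scaled RPKM values computed by the authors. Over all 14 mice the order was Sirt3 (27.4 ± 2.01 RPKM, SD), Prkag1 (20.4 ± 1.06), Prkag2 (8.84 ± 0.503), Prkaa1 (7.68 ± 0.753), Ppargc1a (7.28 ± 0.536), Prkab2 (6.67 ± 0.545), Tfam (6.30 ± 0.419), Prkaa2 (5.15 ± 0.461), Prkab1 (3.34 ± 0.256) and Nrf1 (1.16 ± 0.0685). The ranges over mice of neighbours from Prkag2 to Prkaa2 overlapped, and Prkaa1 exceeded Ppargc1a in 8 of 14 mice. Sirt3, Prkag1, Prkab1 and Nrf1 each had a range apart from both neighbours in that order. The place of Sirt3 depends on its length. The deposited length is 1570 bases, while its exons cover 5973 bases in GENCODE M21, over which the same counts would give 7.20 RPKM, and for Prkag1 the lengths are 1638 and 2175 bases.

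The paired isoforms of each AMPK subunit were set against each other as shares of counts per kilobase. Prkaa2 made up 35.1% to 43.8% of the alpha transcripts over all mice, with means of 41.1% ± 2.38 in NTG (SD, n = 4), 39.0% ± 4.02 in APP/PS1 (SD, n = 5) and 40.7% in CP2-treated mice (38.1% to 43.8%, n = 5). Prkab2 made up 61.1% to 70.5% of the beta transcripts and Prkag2 28.6% to 32.5% of Prkag1 and Prkag2 together, on the deposited lengths. In none of the 3 shares was a group apart from another. The paralogs do not share any 101-base stretch, so reads of this length tell alpha1 from alpha2 and beta1 from beta2.

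**Figure D4:**
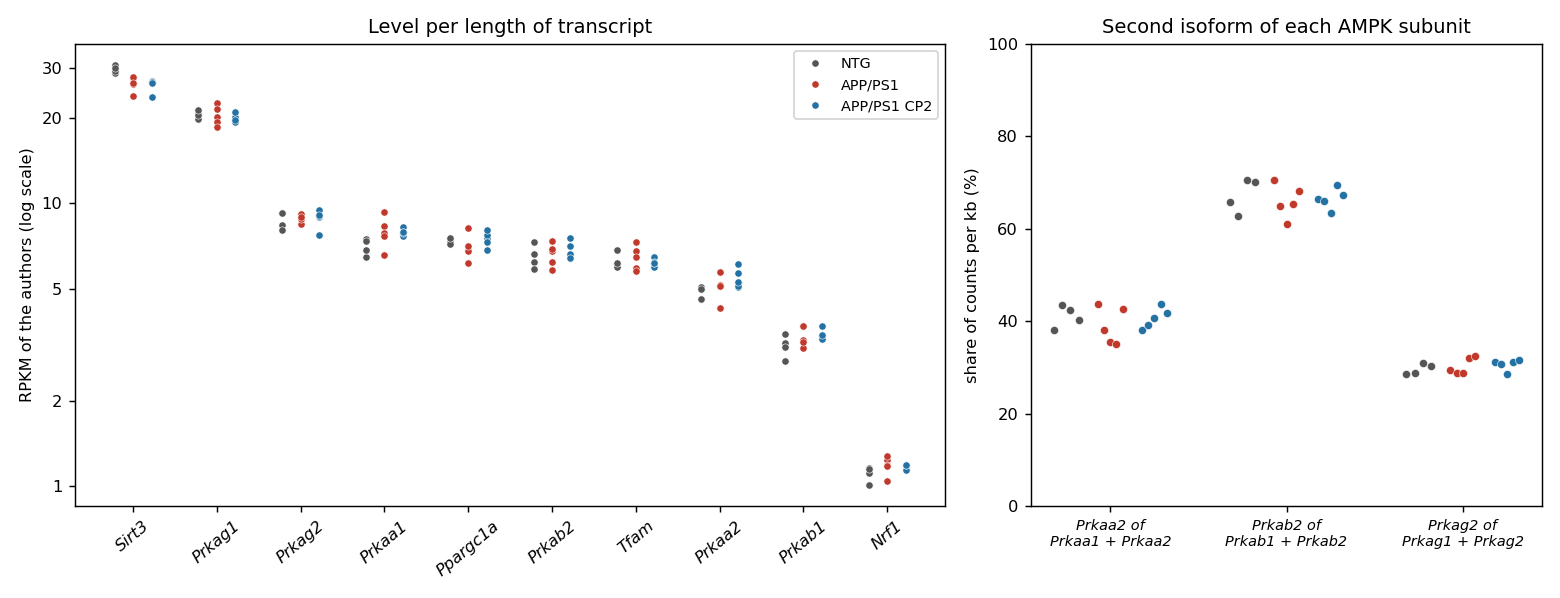
Left, RPKM of the authors (log scale) of the 10 members in each mouse, ordered by the mean, from Sirt3 at 27.4 to Nrf1 at 1.16. Right, share of counts per kilobase (%) that Prkaa2, Prkab2 and Prkag2 make up of their pairs in each mouse, with NTG in grey, APP/PS1 in red and CP2-treated in blue, between 35.1% and 43.8%, 61.1% and 70.5%, and 28.6% and 32.5%.

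The pathway around the members was followed in 8 further lists with 118 genes, of which 116 were tested. By edgeR, 3 of these were called higher and 1 lower in APP/PS1 against NTG mice, 0 of 116 between the APP/PS1 groups (1 higher and 1 lower at an unadjusted p under 0.05, and 0 by DESeq2 or limma-voom after adjustment), and 4 higher and 2 lower in CP2-treated against NTG mice. The shares called by edgeR among all genes tested were 5.68%, 0.00609% and 6.02%. In APP/PS1 against NTG mice DESeq2 and limma-voom each called more of the listed genes than edgeR, with 0 to 2 in each list.

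Upstream of AMPK, 1 of 12 tested regulators rose against NTG in each APP/PS1 group. Fnip2, a folliculin partner that binds AMPK, was at 21.9 to 22.8 CPM in NTG, 25.7 to 29.0 CPM in APP/PS1 and 24.2 to 28.5 CPM in CP2-treated mice, with no overlap with NTG. It rose by 0.28 (SE 0.06, edgeR adjusted p = 0.0158) and 0.28 (SE 0.06, adjusted p = 0.0171), and without NTG mouse 9 the adjusted p was 0.0610 and 0.0577. By edgeR the activating kinases were not called, while DESeq2 and limma-voom each called 2 of the 12 regulators in APP/PS1 against NTG mice. Stk11 (LKB1) had differences of -0.07, -0.01 and -0.07 in the 3 comparisons. Camkk2, the calcium-dependent kinase, had -0.02, -0.05 and -0.07, and mouse 16 held 218 CPM of it against 103 to 150 CPM in the other mice. Without mouse 16 its first difference was -0.25 (edgeR adjusted p = 0.169, lowest of its alternatives, highest 0.998). Camkk1 ranged from 125 to 160 CPM in NTG, from 109 to 130 CPM in APP/PS1 and from 114 to 137 CPM in CP2-treated mice. It had the smallest p of the list between the APP/PS1 groups (0.10, unadjusted p = 0.135).

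Among 20 AMPK substrates, 0 were called by edgeR in APP/PS1 against NTG mice (2 higher and 2 lower at an unadjusted p under 0.05, and 2 called by DESeq2 and 2 by limma-voom), and 2 were called higher in CP2-treated against NTG mice, with list medians of 0.04 and 0.03 against 0.00 over all genes. Hdac5, a class II histone deacetylase, had the smallest p in APP/PS1 against NTG mice, at a log2 difference of -0.20 (SE 0.06, edgeR adjusted p = 0.0843, range over 17 alternatives 0.0178 to 0.395, 0.0178 with DESeq2 and 0.0451 with limma-voom). Acaca, acetyl-CoA carboxylase 1, rose by 0.23 (SE 0.05, edgeR adjusted p = 0.0368) and Pfkfb3, a glycolytic activator, by 0.24 (SE 0.05, adjusted p = 0.0143) in CP2-treated mice. Acaca had 97.2 to 116 CPM in NTG and 118 to 131 CPM in CP2-treated mice, and its call held in 8 of 17 alternatives, being lost without mice 7, 8, 9, 21, 22, 24 or 25 in turn, without a filter on low counts (0.0594) and with all 3 groups in 1 fit (0.161). Pfkfb3 had 39.5 to 43.6 CPM in NTG and 46.5 to 51.9 CPM in CP2-treated mice, and its adjusted p was 0.137 with all 3 groups in 1 fit. APP/PS1 mice had similar means with a wider spread, 120 ± 14.7 CPM of Acaca against 123 ± 4.88 CPM in CP2-treated mice, and 48.3 ± 6.47 CPM of Pfkfb3 against 49.0 ± 2.19 CPM (SD, n = 5 each). Their differences from NTG were 0.18 (edgeR adjusted p = 0.346) and 0.21 (adjusted p = 0.257). The smallest p between the APP/PS1 groups was that of Hdac5 (0.10, unadjusted p = 0.0515). Of 12 tested AMPK-related kinases 0 were called by edgeR, DESeq2 or limma-voom in any comparison, with 3, 0 and 1 at an unadjusted edgeR p under 0.05, and the smallest p belonged to Brsk2 (-0.14, unadjusted p = 0.0345), Snrk (0.10, unadjusted p = 0.120) and Brsk1 (-0.13, unadjusted p = 0.0403) in turn over the 3 comparisons.

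Of 18 other regulators of mitochondrial gene transcription, Esrra was called lower in both comparisons with NTG. Esrra encodes estrogen-related receptor alpha, a nuclear receptor that PGC-1alpha coactivates. It was at 58.3, 60.0, 59.1 and 58.1 CPM in NTG mice, at 53.9, 47.8, 50.7, 49.1 and 48.3 CPM in APP/PS1 and at 50.2, 52.6, 52.1, 49.8 and 48.5 CPM in CP2-treated mice. As for Sirt3, every APP/PS1 mouse of either group was below every NTG mouse. Esrra fell by 0.23 (SE 0.04, edgeR adjusted p = 0.0129) in APP/PS1 and by 0.21 (SE 0.04, adjusted p = 0.00893) in CP2-treated mice. The first call was lost without NTG mouse 8 (adjusted p = 0.0575) or 10 (0.0522) and with the ribosomal RNA covariate (0.0565), over a range from 9.25e-05 to 0.0575, and the other held in 17 of 17 alternatives.

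Ppara, the fatty acid-sensing receptor, was low at 3.02 to 3.73 CPM in NTG and fell by 0.40 (SE 0.10, edgeR adjusted p = 0.0492) in CP2-treated mice, where it had 2.32 to 2.82 CPM. APP/PS1 mice were as low, at 2.07 to 2.90 CPM, with a log2 difference from NTG of -0.48 that was not called by edgeR (SE 0.13, adjusted p = 0.0632). Of the 18 other regulators, DESeq2 and limma-voom each called 2 in APP/PS1 against NTG mice, where edgeR called 1. The Ppara call in CP2-treated against NTG mice held in 4 of 17 alternatives and was lost when any mouse but NTG mouse 7 was left out. In the comparison of the APP/PS1 groups Nrip1 had the smallest p of the list (0.09, unadjusted p = 0.137). Of 18 genes that transcribe or maintain mitochondrial DNA 0 were called by edgeR, DESeq2 or limma-voom, with 2, 0 and 0 at an unadjusted edgeR p under 0.05, and the smallest p in the 3 comparisons belonged to Rrm2b (0.15, unadjusted p = 0.0140), Tefm (-0.18, unadjusted p = 0.0658) and Mterf2 (-0.13, unadjusted p = 0.112).

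Of 11 other sirtuins and enzymes of NAD synthesis, Nmnat3, a mitochondrial nicotinamide nucleotide adenylyltransferase, rose by 0.74 in APP/PS1 mice (SE 0.17, edgeR adjusted p = 0.0344). It was counted only 106 to 295 times per mouse, at 1.34 to 1.58 CPM in NTG and 1.91 to 3.40 CPM in APP/PS1 mice, and its difference in CP2-treated mice was 0.37 (adjusted p = 0.219). The call held in 9 of 17 alternatives and was lost when any 1 of the NTG mice or mouse 18 or 19 was left out, without a filter on low counts (0.0504) and with the ribosomal RNA covariate (0.206). Sirt4, another mitochondrial sirtuin, had the smallest p between the APP/PS1 groups, at 0.23 (unadjusted p = 0.0245, edgeR adjusted p = 0.744). Of 11 genes listed as substrates of Sirt3, 0 were called by edgeR, with 2, 1 and 3 at an unadjusted p under 0.05 in the 3 comparisons. DESeq2 called 2, 0 and 2 of them and limma-voom 1, 0 and 0. Acss2 in this list encodes the cytosolic acetyl-CoA synthetase, whereas the mitochondrial enzyme on which Sirt3 acts is encoded by Acss1. The list and its counts thus include a gene that is not a Sirt3 substrate. The smallest p belonged to Acss2 (-0.24, unadjusted p = 0.00751) in APP/PS1 against NTG, to the mitochondrial isocitrate dehydrogenase Idh2 (-0.19, unadjusted p = 0.0310) between the APP/PS1 groups and to the ATP synthase subunit Atp5o (-0.26, unadjusted p = 0.00437) in CP2-treated against NTG mice.

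The last list held 14 target genes of Nrf1 and PGC-1alpha. Among them are subunits of the respiratory chain and ATP synthase, import proteins, citric acid cycle enzymes, cytochrome c, Vdac1 and Ucp2. Ucp2, a mitochondrial carrier also expressed by microglia, rose by 1.16 (SE 0.15, edgeR adjusted p = 0.00146) in APP/PS1 and by 0.93 (SE 0.15, adjusted p = 0.00412) in CP2-treated mice, from at most 20.8 CPM in NTG to 33.2 to 45.9 CPM and 28.3 to 44.0 CPM. The microglial marker sums given above moved the same way, and their part was not tested. The other 13 genes were not called by edgeR in any comparison, while DESeq2 called 6 of the 14 and limma-voom 2 in CP2-treated against NTG mice, and 2 and 1 in APP/PS1 against NTG mice. Over all genes DESeq2 called 1670 of 16416 and 1667 of 16417 in these comparisons, and limma-voom 1274 and 1563. Between the APP/PS1 groups all 14 estimates were below 0 (median -0.07), where 52.5% of all genes tested were below 0 with a median of -0.01, and 0 of 14 had an unadjusted p under 0.05. Tomm34, an import factor, had the smallest unadjusted edgeR p in the list, 0.0730, at a log2 difference of -0.09. All 14 were below 0 under each of the 8 alternatives that kept all mice, and 13 or 14 when 1 mouse was left out. The estimates share mice, and several genes encode subunits of shared complexes, so that the 14 signs are not independent. In APP/PS1 against NTG mice 12 of 14 were already below 0 (median -0.09), against 51.2% of all genes, and 2 of the 12 passed an unadjusted p of 0.05. In CP2-treated against NTG mice 13 of 14 were below 0 (median -0.15), against 50.6% of all genes, and 7 of the 13 passed an unadjusted p of 0.05, as did 20.2% of all genes in either direction.

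**Figure D5:**
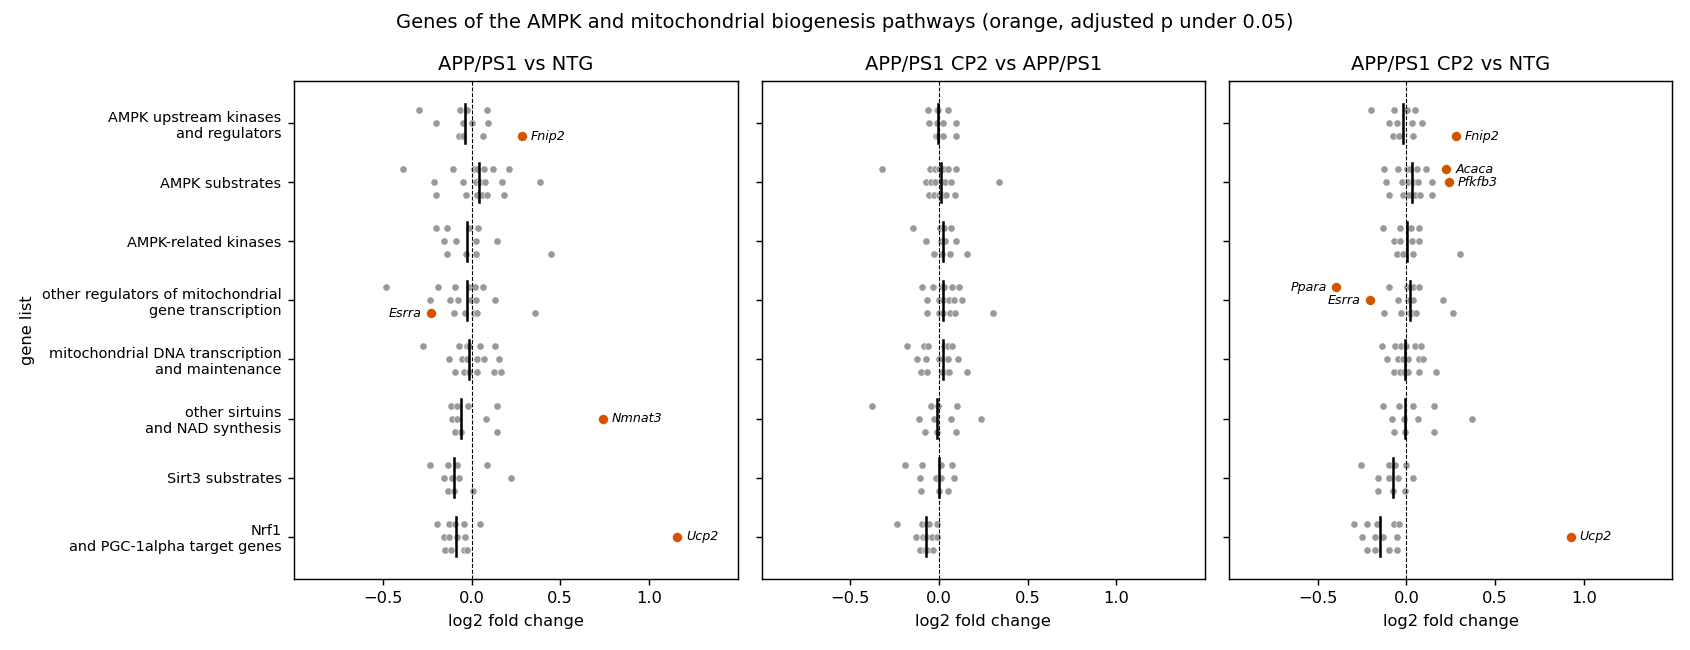
Log2 fold change (horizontal axis) of the 116 tested genes of 8 pathway lists (rows) in the 3 comparisons, with 1 point per gene, the list median as a black bar and genes with an adjusted p under 0.05 in orange with their names. Called genes are seen in both comparisons with NTG and none between the APP/PS1 groups, where the 14 target genes of Nrf1 and PGC-1alpha all lie below 0.

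Patterns across mice were compared for 4 members over 16521 genes as Pearson correlations of log2 CPM in the 14 mice, a description in which group, depth and tissue sampled are shared. The genes most like Sirt3 were Calm3 (r = 0.94, 0.87 without its 2 farthest mice), Pmm1 (0.93, 0.86) and Arf5 (0.92, 0.89). Those most like Ppargc1a were Vwc2l (0.90, 0.87), Rlim (0.89, 0.85) and Fermt1 (0.88, 0.71). Prkaa2 was closest to Nos1ap (0.91, 0.85), Lpgat1 (0.90, 0.83) and Per2 (0.89, 0.84), and Tfam to Tmx2 (0.91, 0.81), Crebrf (0.90, 0.84) and Morf4l1 (0.89, 0.81). Spearman's rho for these 12 pairs lay between 0.75 and 0.92.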

How the data were processed

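RNA libraries from 14 mouse brains were analysed in 3 groups. Per the labels and the study's methods, the authors used a TruSeq kit that does not mark strand, paired 101-base reads, TopHat2 on mm10 and featureCounts on Ensembl genes, where 1 read could count for several overlapping genes. They deposited raw gene counts and RPKM values. RPKM served only to compare levels between genes. Each comparison was fitted on its 2 groups with edgeR 4.0.16 (TMM factors, quasi-likelihood test, Benjamini-Hochberg adjustment) in R 4.3.3, for genes with a robust CPM above 1 in every mouse of at least 1 group. CPM values are TMM-normalized. Intervals are 95% intervals of the fit. Named genes are the members, the called genes of each pathway list (at most 4 by size) or else its smallest p, Stk11, Camkk2, Prkag3, and the 3 genes most correlated with 4 members. Members and lists were chosen with earlier results of these data known. The library numbers name single mice, and none of 26 replicate pairs was alike within sampling noise. Alternatives were DESeq2 1.42.0, RLE or upper-quartile factors, other filters, 1 joint fit, limma-voom (limma 3.58.1), a ribosomal RNA covariate and leaving out each mouse. The procedure was tested on simulated data. Promoter windows are from RefSeq, and exon overlaps and 101-base stretches from GENCODE M21. Some genes of the pathway lists are not reported here and were left out of the lists.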

Additional observations from a re-analysis of the deposited data

Results flagged for a closer look

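Of 30 sets of values (10 members in 3 groups), 2 held a mouse apart from the rest of its group by Dixon's test at the 95% level, where chance flags about 1 set in 20. Prkab1 was at 14.3 CPM in CP2-treated mouse 23, against 12.1 to 12.5 CPM in the other 4 mice of its group. Sirt3 was at 46.8 CPM in APP/PS1 mouse 20, against 50.1 to 51.4 CPM in the other 4, and without this mouse Sirt3 still fell by 0.21 on the log2 scale against NTG mice (edgeR adjusted p = 0.0386, within 9.57e-05 to 0.0906 over its alternatives).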

How the results depend on the processing

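No paired analysis was possible because the groups share no mouse numbers. Sirt3 fell against NTG mice under every alternative (17 in each comparison), and the 2 APP/PS1 groups held 0 called members throughout. In APP/PS1 against NTG mice 1667 genes were called with DESeq2, 1563 with limma-voom and 578 to 1474 when 1 mouse was left out, and called members were 0 with the ribosomal RNA share as a covariate and 0 to 1 without 1 mouse. In CP2-treated against NTG mice 1670 genes were called with DESeq2 and 572 to 1123 without 1 mouse, and called members were 2 with DESeq2, 2 with limma-voom and 0 to 1 without 1 mouse. Between the APP/PS1 groups 0 genes were called with all 3 groups in 1 fit, 23 with DESeq2, 2 with the covariate and 0 to 1 without 1 mouse, and unadjusted calls were 1779 without a filter and 642 to 1575 without 1 mouse. The cause was not tested.

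None of the differences that changed sign was called, and their values are log2 fold changes. Those of Camkk2 lay farthest from 0. In APP/PS1 against NTG mice the covariate gave Prkaa2 0.056, Prkag2 0.0018, Nrf1 -0.011 and Ric8 0.032, and limma-voom gave Tfam 0.013. Between the APP/PS1 groups limma-voom gave Prkaa1 -0.024, Prkab1 -0.0083, Nrf1 0.0098, Sirt3 0.0090, Camkk2 0.12 and B130046B21Rik 0.0024, and the covariate gave Prkaa1 -0.049, Prkab1 -0.019, Prkag1 0.019, Nrf1 0.016, Camkk2 0.22 and B130046B21Rik 0.0026. Upper-quartile factors gave Prkag2 -0.00036, and Sirt3 was 0.00011 with DESeq2, 0.00012 with RLE factors and 0.0025 with all 3 groups in 1 fit.

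Leaving out 1 mouse gave ranges across 0. In APP/PS1 against NTG mice they were Prkaa2 -0.076 to 0.039, Prkab1 -0.00075 to 0.12, Prkab2 -0.077 to 0.022, Prkag2 -0.057 to 0.0038, Tfam -0.061 to 0.015, Nrf1 -0.0031 to 0.063, Camkk2 -0.25 to 0.062 and Ric8 -0.058 to 0.015. Between the APP/PS1 groups they were Prkaa1 -0.048 to 0.061, Prkab1 -0.0089 to 0.051, Prkag1 -0.036 to 0.0010, Prkag2 -0.020 to 0.039, Nrf1 -0.034 to 0.028, Sirt3 -0.022 to 0.028, Camkk2 -0.14 to 0.18, Stk11 -0.028 to 0.014, B130046B21Rik -0.069 to 0.0072 and Ric8 -0.036 to 0.0028. In CP2-treated against NTG mice they were Prkab2 -0.0018 to 0.059, Prkag2 -0.049 to 0.012, Ppargc1a -0.042 to 0.018 and Ric8 -0.073 to 9.1e-05. Depth limits little here, since the least counted member had 858 counts, while with 4 or 5 mice a group the 95% intervals of the members ran from -10.5% to 23.1% between the APP/PS1 groups. Where leaving out 1 mouse lost the Sirt3 call, the difference was still at or below -0.20.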
